A study of Homo sapiens with 8 samples.

Results

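XBP1, a transcription factor of the unfolded protein response, and 9 genes whose products fold or dispose of proteins in the endoplasmic reticulum (ER) were followed across 8 libraries of 2 HER2-positive breast cancer cell lines. The 10 genes were HSPA5, HSP90B1, SDF2L1, PDIA4, PDIA6, DNAJB9, DNAJC3, HERPUD1, EDEM1 and XBP1 itself, taken by gene symbol from the 20531 genes that each table lists. They are grouped by what their products do, and they were chosen with earlier results of these data known. All 10 passed the filter on low values, which asked for 10 or more in any 1 library and kept 14429 genes.

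SKBR-3 and BT474m1 are human lines with an amplified HER2 gene (ERBB2), the receptor tyrosine kinase that drives their growth. Each line received DMSO, the solvent control, or 300 nM lapatinib, a kinase inhibitor of HER2 and the epidermal growth factor receptor, or 300 nM JQ1, which blocks the bromodomains through which BET proteins bind acetylated histones, or both drugs at those doses. The labels give 48 h for every group, and all cells grew in RPMI with 10% serum. Polyadenylated RNA was sequenced from 1 library per group, so that no difference below has a replicate check, and no test between groups was run.

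When unfolded protein accumulates in the ER, the sensor IRE1 (the ERN1 gene) removes a short intron from XBP1 mRNA, which then encodes an active factor, while ATF6 is cleaved to release another and PERK slows translation and favors ATF4. XBP1 and ATF6 are known to raise chaperones, disulfide isomerases and the machinery that returns misfolded protein to the cytosol for degradation, called ER-associated degradation. In luminal breast cells XBP1 is also known as a gene expressed together with the estrogen receptor. The values here are sums per gene and hold no measure of how much XBP1 mRNA was spliced.

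Promoter letters were read first, as a description apart from expression. The 10 genes were grouped by what their products do, so letters that they share are no test of the group. The 250 bases before each RefSeq start with a window on GRCh38.p14 were searched on both strands in the 13 windows of the 10 genes and in all 35116 windows of the table. The ER stress response element, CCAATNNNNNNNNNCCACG, was in 4 of the 13 windows, from 4 of the 10 genes (XBP1, HSPA5, HSP90B1 and PDIA6), against 26 windows, or 0.0740%, of all. The second form of the element, ATTGGNCCACG, was in 2 of the 13, those of HERPUD1 and SDF2L1, against 18 windows, or 0.0513%, of all. The 6 windows with an element are printed 5′ to 3′ on the strand of the gene, up to the base before the start, in full for HSP90B1 and SDF2L1 and as the last 120 bases for the other four, with the elements in capitals.
XBP1 (chr22:28800570-28800689, minus strand): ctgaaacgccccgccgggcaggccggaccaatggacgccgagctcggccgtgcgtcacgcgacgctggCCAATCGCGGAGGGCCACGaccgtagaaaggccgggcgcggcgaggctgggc
HSPA5 (chr9:125241344-125241463, minus strand): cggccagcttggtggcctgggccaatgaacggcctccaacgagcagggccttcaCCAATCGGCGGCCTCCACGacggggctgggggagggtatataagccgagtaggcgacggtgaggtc
HSP90B1 (chr12:103930160-103930409, plus strand): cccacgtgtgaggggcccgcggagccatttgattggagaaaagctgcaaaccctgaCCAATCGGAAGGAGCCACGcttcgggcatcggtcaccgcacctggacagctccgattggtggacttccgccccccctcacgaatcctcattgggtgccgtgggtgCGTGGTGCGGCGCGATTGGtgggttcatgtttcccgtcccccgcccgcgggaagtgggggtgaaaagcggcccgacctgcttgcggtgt
PDIA6 (chr2:10812786-10812905, minus strand): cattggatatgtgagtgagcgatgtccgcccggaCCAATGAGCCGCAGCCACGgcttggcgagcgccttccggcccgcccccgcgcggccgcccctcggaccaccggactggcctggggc
HERPUD1 (chr16:56932022-56932141, plus strand): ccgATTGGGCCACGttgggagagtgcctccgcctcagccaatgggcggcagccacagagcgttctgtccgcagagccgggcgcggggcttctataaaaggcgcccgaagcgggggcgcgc
SDF2L1 (chr22:21642052-21642301, plus strand): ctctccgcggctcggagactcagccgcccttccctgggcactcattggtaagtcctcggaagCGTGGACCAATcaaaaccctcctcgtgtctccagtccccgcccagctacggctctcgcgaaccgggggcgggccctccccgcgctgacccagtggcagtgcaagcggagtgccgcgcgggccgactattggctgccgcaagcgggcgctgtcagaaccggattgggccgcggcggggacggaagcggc

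The element lay 52 to 34 bases before the start in XBP1, 66 to 48 in HSPA5 and 86 to 68 in PDIA6, where the start is the inner one of the 2 with a window, both inside the outer end of the gene. HSP90B1 held it in both directions, at 194 to 176 and at 89 to 71 bases. The second form lay at 117 to 107 bases in HERPUD1 and, on the opposite strand, at 188 to 178 in SDF2L1. The shorter letters CCAAT and CCACG, which are parts of these elements, were each in 11 of the 13 windows, from 10 of the 10 genes, but also in 32.0% and 33.5% of all windows. The core TGACGTGG was in no window of the 10 genes and in 0.612% of all, and the forkhead letters GTAAACA and GTCAACA were in none of theirs and in 2.98% and 1.95% of all. At shares this low, none among 13 windows says little. The study drew its forkhead motif from regions near genes that gained ChIPseq signal with lapatinib, and those regions were not searched here. A match is a description of the letters, and no binding was measured at these windows here.

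The deposited values are read counts estimated per gene and scaled to an upper quartile, over genes above 0, of about 1000 in every library, called normalized read counts below. One read was worth 0.471 to 0.766 of a unit, which gave 21420113 to 34112379 reads on genes per library. Changes are differences of log2(value + 1), a gene was called raised or lowered at 2-fold or more, and the ranges in parentheses are 95% intervals. These intervals, exact ones on the recovered reads, cover counting error and not the spread between cultures, and reads copied in PCR are not independent molecules. In these bulk libraries fewer cells with a transcript and less of it per cell cannot be told apart.

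The line labels were checked on markers. ERBB2 lay between 94678 and 277872 in the 8 libraries, and the epithelial genes EPCAM, KRT8 and KRT18 were all at 3299.7 or above. ESR1, the estrogen receptor, was at most 16.8 in SKBR-3 and 189.9 to 1827 in BT474m1. Of 5 markers of immune, endothelial and fibroblast cells, 4 (PTPRC, CD3E, PECAM1 and COL3A1) were at most 8.02 in every library. The summed level of the 5 was 24.8 to 126.7 in the SKBR-3 libraries and 339 to 1262 in those of BT474m1, nearly all of it COL1A1, and its part in the results was not tested.

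XBP1 (Entrez 7494) is on chromosome 22, from 28794560 to 28800569 on the minus strand of GRCh38.p14. In SKBR-3 its normalized read count was 10526 (DMSO), 38637 (lapatinib), 5913 (JQ1) and 24563 (both drugs). In BT474m1 it was 17776 (DMSO), 24192 (lapatinib), 8399 (JQ1) and 9448 (both drugs). XBP1 was highest with lapatinib alone and lowest with JQ1 alone in both lines, and it spanned 6.53-fold in SKBR-3 and 2.88-fold in BT474m1. Lapatinib alone raised XBP1 in SKBR-3, by 3.67-fold or 1.88 (1.85 to 1.90) on the log2 scale, and gave 0.44 (0.42 to 0.46) in BT474m1, which is under 2-fold. JQ1 alone lowered it in BT474m1, with a log2 change of -1.08 (-1.11 to -1.06), and gave -0.83 (-0.87 to -0.79) in SKBR-3, which is under 2-fold. The SKBR-3 value was -0.74 with median-of-ratios scaling and -0.98 with equal totals. With both drugs XBP1 was raised over DMSO in SKBR-3, at 1.22 (1.19 to 1.25), and stood at -0.91 (-0.94 to -0.89) in BT474m1, so that the combination ended on opposite sides of DMSO. Adding JQ1 to lapatinib lowered XBP1 in BT474m1, at -1.36 (-1.38 to -1.33), and gave -0.65 (-0.67 to -0.63) in SKBR-3.

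ESR1 is given beside XBP1 because the pair is known to be expressed together. In BT474m1 ESR1 was 840 (DMSO), 1827 (lapatinib), 189.9 (JQ1) and 249 (both drugs), the same order as XBP1. In SKBR-3 it was 4.29, 16.8, 1.93 and 2.75 in that order of treatments, where 3 reads are worth 1.93 to 2.30, and XBP1 had its wider span in that line. The part of ESR1 in the XBP1 values was not tested.

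HSPA5 and HSP90B1 encode BiP and GRP94, the Hsp70 and Hsp90 chaperones of the ER lumen. HSPA5 (Entrez 3309) is on chromosome 9, from 125234853 to 125241343 on the minus strand. Its normalized read count in SKBR-3 was 10095 (DMSO), 10194 (lapatinib), 9852 (JQ1) and 16671 (both drugs). In BT474m1 it was 8781 (DMSO), 19130.1 (lapatinib), 10827 (JQ1) and 16593 (both drugs). HSPA5 therefore stayed within a narrow band in 3 of the 4 SKBR-3 libraries and was higher only in the one with both drugs, whereas in BT474m1 both libraries with lapatinib were above the others. Lapatinib raised HSPA5 in BT474m1, at 1.12 (1.10 to 1.15), and gave 0.01 (-0.02 to 0.05) in SKBR-3, a value whose interval covers 0 and whose sign turned under both other scalings. In SKBR-3 the combination stood 0.72 (0.69 to 0.75) above DMSO and 0.71 (0.68 to 0.74) above lapatinib alone, under 2-fold in both cases.

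HSP90B1 (Entrez 7184) is on chromosome 12, from 103930410 to 103947926 on the plus strand. In SKBR-3 it was 16657 (DMSO), 15593 (lapatinib), 12882 (JQ1) and 18754 (both drugs). In BT474m1 it was 6443 (DMSO), 12841 (lapatinib), 5677 (JQ1) and 10729 (both drugs). The lines kept apart at every treatment, and BT474m1 came closest to SKBR-3 in the lapatinib library. The lapatinib change in BT474m1 was 0.99 (0.96 to 1.03), or 1.99-fold, so that HSP90B1 lay just under the 2-fold limit there and just over it when the libraries were scaled to equal totals. In SKBR-3 the same change was -0.10 (-0.12 to -0.07). UQCC6, listed as C12orf73 at 97.7 to 163.6, overlaps 13169 bases of this gene on the other strand, and the copy HSP90B3P stood at 31.4 to 116, both far below HSP90B1.

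SDF2L1 (Entrez 23753), a small lumen protein that works together with a J protein of the ER, is on chromosome 22, from 21642302 to 21644299 on the plus strand. The fewest reads of the 10 genes fell on it, and its intervals are the widest. In SKBR-3 it was 346 (DMSO), 154 (lapatinib), 267 (JQ1) and 135 (both drugs). In BT474m1 it was 161 (DMSO), 200.0 (lapatinib), 99.5 (JQ1) and 120.1 (both drugs). In SKBR-3 both libraries with lapatinib were below both without it, opposite to XBP1. SDF2L1 was lowered in SKBR-3 by lapatinib, at -1.16 (-1.41 to -0.93), and by both drugs, at -1.35 (-1.61 to -1.12), and the first of these intervals takes in the 2-fold limit. In BT474m1 the lapatinib change was 0.31 (0.09 to 0.54) and the JQ1 change -0.69 (-0.95 to -0.44).

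PDIA4 and PDIA6 are disulfide isomerases, which form and rearrange the disulfide bonds of proteins in the lumen. PDIA4 (Entrez 9601) is on chromosome 7, from 149003051 to 149028505, and PDIA6 (Entrez 10130) on chromosome 2, from 10783391 to 10837712, both on the minus strand. PDIA4 was 3401 (DMSO), 3345 (lapatinib), 3014 (JQ1) and 4426 (both drugs) in SKBR-3, and 3489.9 (DMSO), 3841 (lapatinib), 4236 (JQ1) and 4732 (both drugs) in BT474m1. Its highest and lowest libraries differed by 1.47-fold and 1.36-fold within the lines, and the highest was the combination in both. PDIA6 was 6335 (DMSO), 5720.2 (lapatinib), 6111 (JQ1) and 7523 (both drugs) in SKBR-3, and 3301 (DMSO), 4292 (lapatinib), 2689.5 (JQ1) and 3319 (both drugs) in BT474m1. PDIA6 was lower in BT474m1 than in SKBR-3 at every treatment. Neither isomerase was raised or lowered in any of the 5 drug comparisons of either line. The PDIA6 values were fractions of reads in all 8 libraries, so that reads were divided between it and other features, and ATP6V1C2, which reached 529, overlaps 1720 of its bases on the other strand.

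DNAJB9 and DNAJC3 encode ERdj4 and P58IPK, J-domain proteins that pass substrates to BiP, and ERdj4 is also known to hold back IRE1. DNAJB9 (Entrez 4189) is on chromosome 7, from 108569874 to 108574850, and DNAJC3 (Entrez 5611) on chromosome 13, from 95677139 to 95794988, both on the plus strand. DNAJB9 was 956 (DMSO), 2309 (lapatinib), 883 (JQ1) and 3206 (both drugs) in SKBR-3. In BT474m1 it was 331 (DMSO), 593 (lapatinib), 393 (JQ1) and 647 (both drugs). Both lapatinib libraries stood above both others in each line. DNAJB9 was raised in SKBR-3 by lapatinib, at 1.27 (1.18 to 1.37), and by both drugs, at 1.74 (1.66 to 1.83), while the corresponding values in BT474m1 were 0.84 (0.70 to 0.98) and 0.96 (0.83 to 1.10), the latter with an interval that reaches 2-fold. DNAJC3 was 4334 (DMSO), 5721 (lapatinib), 4561 (JQ1) and 7455 (both drugs) in SKBR-3, and 1446 (DMSO), 2131 (lapatinib), 1562 (JQ1) and 2109.6 (both drugs) in BT474m1. DNAJC3 had the same split between libraries with and without lapatinib, but its changes were smaller, at 0.40 and 0.56 for lapatinib and 0.78 and 0.54 for both drugs.

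HERPUD1 and EDEM1 act in ER-associated degradation. HERPUD1 is a membrane protein that assembles the ligase complex, and EDEM1 trims mannose from misfolded glycoproteins. HERPUD1 (Entrez 9709) is on chromosome 16, from 56932142 to 56944864, and EDEM1 (Entrez 9695) on chromosome 3, from 5187707 to 5219958, both on the plus strand. HERPUD1 was 2564 (DMSO), 6059 (lapatinib), 1856 (JQ1) and 9706 (both drugs) in SKBR-3. In BT474m1 it was 2833 (DMSO), 5036 (lapatinib), 2528 (JQ1) and 3715 (both drugs). The highest library was the combination in SKBR-3 and lapatinib alone in BT474m1. Lapatinib raised HERPUD1 in SKBR-3, at 1.24 (1.18 to 1.30), and both drugs together raised it 3.78-fold, or 1.92 (1.87 to 1.97), the widest change over DMSO among the 10 genes in either line. The lapatinib change in BT474m1 was 0.83 (0.78 to 0.88), and that with both drugs was 0.39 (0.34 to 0.44). EDEM1 was 1606 (DMSO), 2668 (lapatinib), 1876 (JQ1) and 2930.3 (both drugs) in SKBR-3, and 821 (DMSO), 904 (lapatinib), 638 (JQ1) and 665 (both drugs) in BT474m1. EDEM1 with both drugs stood 0.87 (0.79 to 0.94) above DMSO in SKBR-3, a value that passed 2-fold under median-of-ratios scaling, and at -0.30 (-0.41 to -0.20) in BT474m1.

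**Figure D1:**
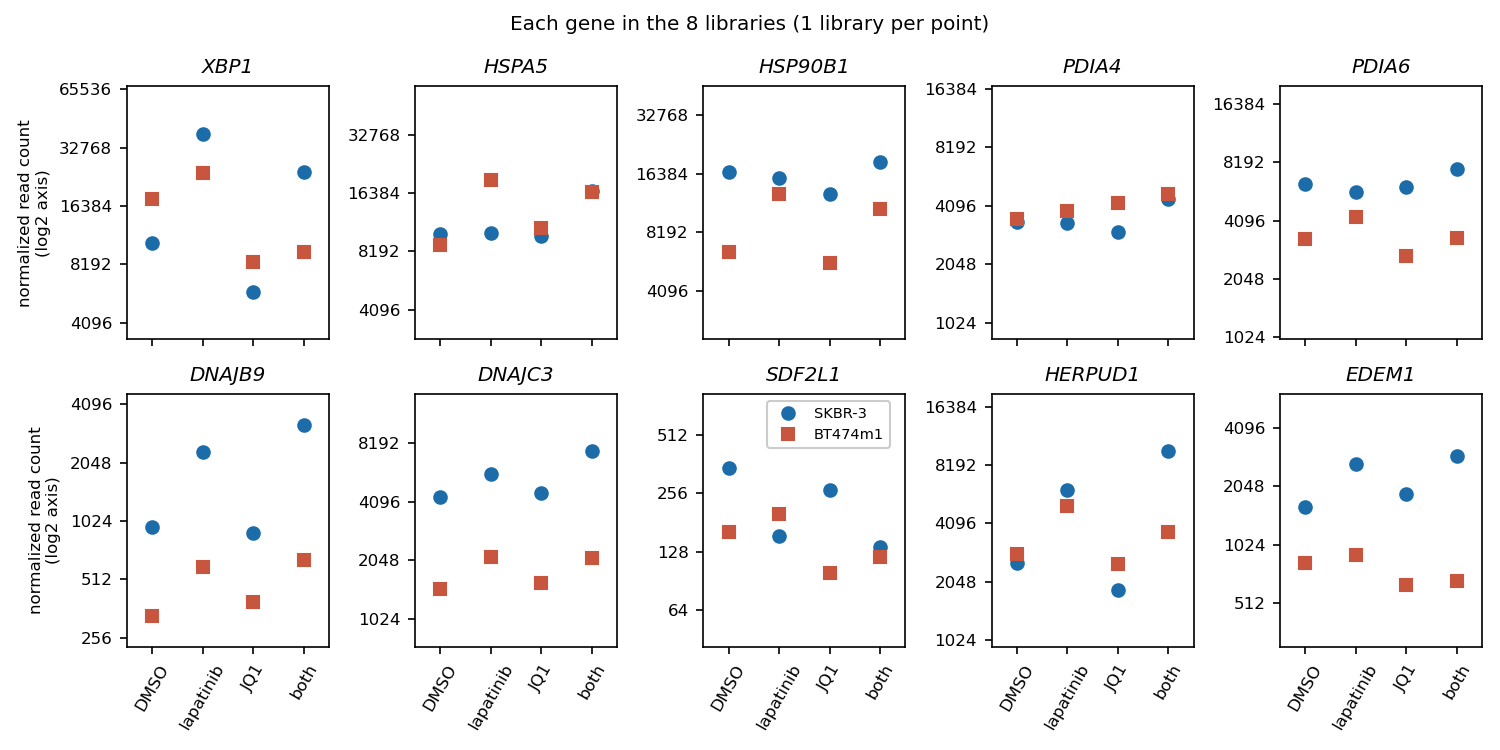
Normalized read count of each of the 10 genes (vertical log2 axis, the same fold span in every panel) under the 4 treatments, with 1 point per library, circles for SKBR-3 and squares for BT474m1. XBP1 spans 5913 to 38637 in SKBR-3 and HSPA5 9852 to 16671, while SDF2L1 goes from 346 with DMSO to 134.8 with both drugs in that line.

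In SKBR-3 lapatinib alone raised 3 of the 10 (XBP1, DNAJB9 and HERPUD1), beside 11.1% of all 14429 genes, and lowered 1 (SDF2L1), beside 9.44%. The median change of the 10 was 0.21, against 0.05 over all genes, and 6 of the 10 were above DMSO, beside 53% of all genes. Without XBP1 the median was 0.01. With median-of-ratios scaling and with equal totals 5 of the 10 were above DMSO, beside 52.0% and 50.1% of all genes. The lumen chaperones HSPA5 and HSP90B1 and the isomerases PDIA4 and PDIA6 lay between -0.15 and 0.01. In BT474m1 lapatinib raised 1 gene (HSPA5), beside 14% of all genes, and lowered 0, beside 8.06%. There, 10 of the 10 genes were above DMSO, from 0.14 for PDIA4 to 1.12 for HSPA5, beside 54.5% of all genes, with a median of 0.50 against 0.07. All 10 stayed above DMSO under both other scalings, and HSP90B1, DNAJB9 and HERPUD1 came next to HSPA5, ahead of XBP1. At 1.5-fold in place of 2-fold, lapatinib raised 4 of the 10 in each line, beside 23.2% of all genes in SKBR-3 and 24.8% in BT474m1, and DNAJB9 and HERPUD1 were among the 4 in both.

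JQ1 alone raised 0 of the 10 genes in either line, beside 3.75% of all genes in SKBR-3 and 4.81% in BT474m1. It lowered 0 in SKBR-3 and 1 (XBP1) in BT474m1, beside 11.8% of all genes in each. The 9 genes other than XBP1 lay between -0.47 (HERPUD1) and 0.22 (EDEM1) in SKBR-3, where the small values of HSPA5, PDIA6 and DNAJC3 changed sign with the scaling. In BT474m1 they lay between -0.69 (SDF2L1) and 0.30 (HSPA5). Above DMSO were 2 of the 10 in SKBR-3 and 4 in BT474m1, beside 40.4% and 44.7% of all genes. The medians of the 10 were -0.14 and -0.17, against -0.08 and -0.06 over all genes. The SKBR-3 values moved with the scaling: with median-of-ratios scaling the median was -0.06 and 4 of the 10 were above DMSO (46.8% of all genes), and with equal totals it was -0.29 and 1 was above (29.6%).

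The combination raised 3 of the 10 genes over DMSO in SKBR-3, again XBP1, DNAJB9 and HERPUD1, beside 10.8% of all genes, and lowered SDF2L1, beside 20.8%. The DMSO library is common to these comparisons, so their calls are not independent of one another. In SKBR-3 9 of the 10 genes were above DMSO with both drugs, beside 43.5% of all genes, and the median was 0.75 against -0.08. In BT474m1 the combination raised 0 and lowered 0 at 2-fold, beside 14.2% and 15.3%, and 7 of the 10 were above DMSO, beside 50.1%, with a median of 0.42 against 0.00. With median-of-ratios scaling 6 were above DMSO, beside 48.9% of all genes, since PDIA6 went from 0.01 to -0.01. DNAJB9, HSPA5 and HSP90B1 stood highest there, at 0.96, 0.92 and 0.74, and XBP1 lowest.

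**Figure D2:**
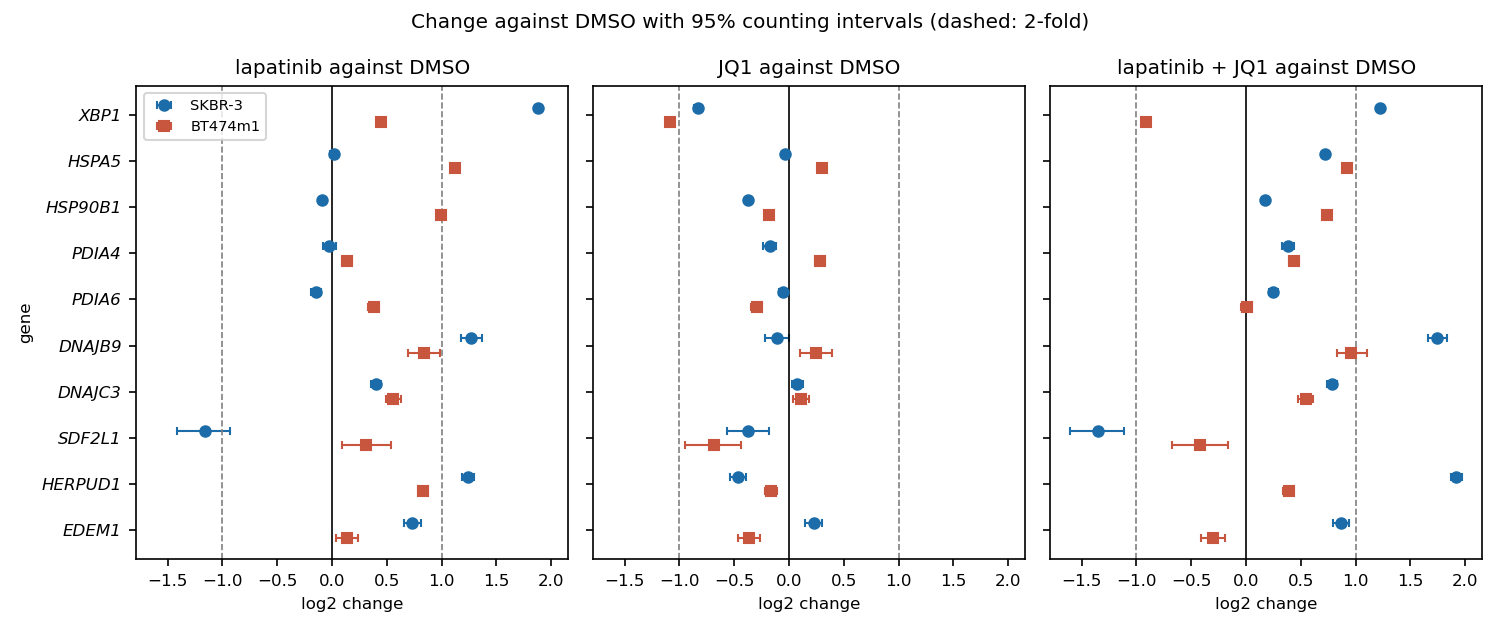
Log2 change of each gene against DMSO (horizontal axis) with lapatinib, JQ1 or both drugs, circles for SKBR-3 and squares for BT474m1, with bars for 95% counting intervals and dashed lines at 2-fold. XBP1 sits at 1.88 with lapatinib in SKBR-3 and HSPA5 at 0.01, while in BT474m1 HSPA5 sits at 1.12 and XBP1 at 0.44.

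Adding JQ1 to lapatinib was read by setting the combination against lapatinib alone. In SKBR-3 it raised 0 and lowered 0 of the 10 genes at 2-fold, beside 3.22% and 16.2% of all genes, and in BT474m1 it raised 0 and lowered 1 (XBP1), beside 5.2% and 12.5%. In SKBR-3 8 of the 10 genes were above the lapatinib library, beside 38.2% of all genes (49.8% with median-of-ratios scaling), with HSPA5 at 0.71 (0.68 to 0.74), HERPUD1 at 0.68 (0.64 to 0.72) and DNAJB9 at 0.47 (0.41 to 0.54), and XBP1 and SDF2L1 below it. In BT474m1 2 of the 10 were above it, PDIA4 at 0.30 (0.25 to 0.35) and DNAJB9 at 0.13 (0.00 to 0.25), beside 47.4% of all genes, and DNAJC3 at -0.01 turned positive under median-of-ratios scaling. For 10 of the 10 genes the change in BT474m1 was below that in SKBR-3, with differences from -0.10 (PDIA4) to -1.12 (HERPUD1) on the log2 scale, beside 42% of all genes, and the count was the same under both other scalings. The median of these differences was -0.56, against 0.11 over all genes. With median-of-ratios scaling it was -0.69 against -0.01, and 51.0% of all genes were below 0.

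Adding lapatinib to JQ1, read against the JQ1 library, raised 3 of the 10 genes in SKBR-3 (XBP1, DNAJB9 and HERPUD1) beside 9.79% of all genes and lowered 0 beside 12.3%, with SDF2L1 at -0.98. HERPUD1 went up 5.23-fold and XBP1 4.15-fold in this comparison, and 9 of the 10 genes were above JQ1 alone, beside 48.6%. In BT474m1 it raised 0 and lowered 0, beside 12.4% and 7.27%, although 10 of the 10 were above JQ1 alone, beside 53.5% of all genes. HSP90B1 was highest there, at 0.92 (0.88 to 0.95), and EDEM1 lowest, at 0.06 (-0.06 to 0.18), a value whose sign turned under median-of-ratios scaling.

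Whether the drugs acted as the sum of their single effects was described by the log2 change with both drugs minus the sum of the 2 single changes. In SKBR-3 9 of the 10 genes lay above the sum, beside 42% of all genes, with a median of 0.51 against -0.06. The departures were 1.15 (1.06 to 1.23) for HERPUD1, the one gene past 1 (beside 3.9% of all genes), 0.74 (0.70 to 0.79) for HSPA5 and 0.64 (0.60 to 0.67) for HSP90B1. PDIA4, PDIA6 and DNAJB9 followed between 0.45 and 0.59, and DNAJC3 was at 0.31. XBP1 itself was at 0.18 (0.14 to 0.22), and the intervals of SDF2L1 and EDEM1 covered 0. In BT474m1 9 of the 10 lay below the sum, beside 48.7% of all genes, with a median of -0.10 against 0.01. HSPA5 was lowest, at -0.51 (-0.54 to -0.47), followed by HERPUD1 at -0.27 (-0.35 to -0.20) and XBP1 at -0.27 (-0.31 to -0.24), and PDIA4 was at 0.02 (-0.04 to 0.09). With median-of-ratios scaling 9 genes and with equal totals 10 lay above the sum in SKBR-3, beside 49.5% and 52.7% of all genes, and 9 lay below it in BT474m1 under each.

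**Figure D3:**
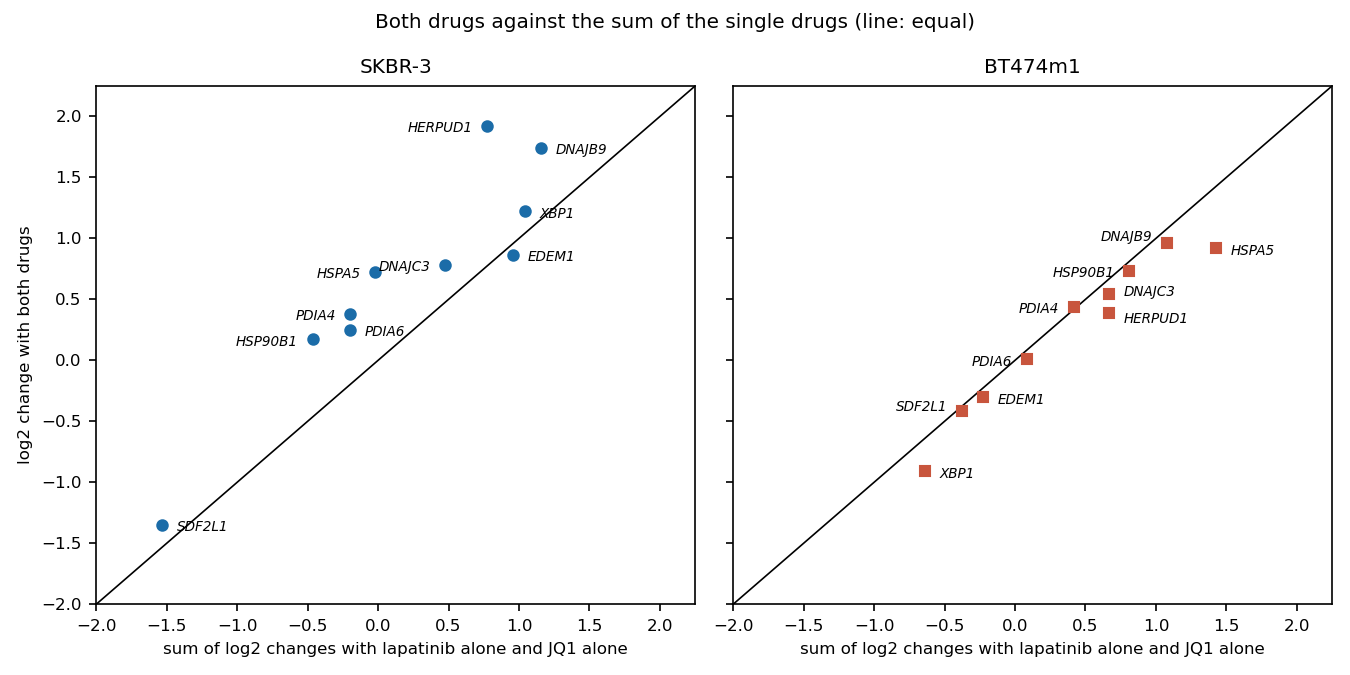
Log2 change with both drugs against DMSO (vertical axis) plotted against the sum of the changes with lapatinib alone and with JQ1 alone (horizontal axis), 1 point per gene, with SKBR-3 left and BT474m1 right and a line where the 2 are equal. In SKBR-3 HERPUD1 lies 1.15 and HSPA5 0.74 above the line, and in BT474m1 HSPA5 lies at -0.51 from it.

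The lines were also set side by side with DMSO alone, where 3 of the 10 genes were higher in BT474m1, beside 57.4% of all genes. In BT474m1 0 of the 10 genes were at least 2-fold higher than in SKBR-3, beside 26.8% of all genes, and 4 were at least 2-fold lower, beside 15.6%. These were DNAJC3 at -1.58 (-1.65 to -1.52), DNAJB9 at -1.52 (-1.66 to -1.39), HSP90B1 at -1.37 (-1.40 to -1.34) and SDF2L1 at -1.10 (-1.30 to -0.90). EDEM1 at -0.97 (-1.06 to -0.88) and PDIA6 at -0.94 (-0.99 to -0.89) lay just inside the limit and passed it under median-of-ratios scaling. XBP1 was higher in BT474m1, at 0.76 (0.73 to 0.78), and HSPA5, PDIA4 and HERPUD1 lay between -0.20 and 0.14, where the signs of PDIA4 and HERPUD1 changed with that scaling. The line differences have 1 library on each side, so that line and culture cannot be told apart.

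The lapatinib changes differed between the lines by at least 1 on the log2 scale for 4 genes. SDF2L1 (1.48), HSPA5 (1.11) and HSP90B1 (1.09) had the higher change in BT474m1, 3 of the 10 beside 12.5% of all genes. XBP1 had the higher change in SKBR-3 (-1.43 as BT474m1 minus SKBR-3), 1 of the 10 beside 9.45%. Each of the 4 differences rests on 4 libraries and was not tested.

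Levels of different genes were compared per kilobase of the Ensembl canonical transcript in GENCODE v44, since the gene lengths behind the tables were not used here. On that scale XBP1 ranked 1 of the 10 genes in 6 libraries, and HSP90B1 did in SKBR-3 with DMSO and with JQ1. With DMSO in SKBR-3 the pair was close, at 5987 per kilobase for HSP90B1 and 5877 for XBP1, and with lapatinib XBP1 reached 21573 against 5605 for HSP90B1. In BT474m1 with both drugs the top 3 genes came near each other, XBP1 at 5275, HSPA5 at 4232 and HSP90B1 at 3857 per kilobase. At the other end EDEM1 ranked 10 in 6 libraries and SDF2L1 in the 2 SKBR-3 libraries with lapatinib.

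Within the group, likeness was measured as the root mean square difference of log2 values over the 8 libraries after each line was centered on its own mean. The closest pair was DNAJC3 and HSPA5 (0.182), followed by DNAJC3 and PDIA4 (0.193), HSPA5 and HSP90B1 (0.196) and DNAJB9 and HERPUD1 (0.222). The most distant pair was XBP1 and SDF2L1 (1.10). Among 9840 other genes that reached 100 in any 1 library of each line, the 5 most like XBP1 were GAB2 (0.221), NUCB2 (0.226), TRIL (0.243), ADAMTSL3 (0.251) and CCDC149 (0.253). ADAMTSL3 reached 100 with lapatinib alone in each line (121.7 and 106.6), the library in which XBP1 was highest, and GAB2 reached it in SKBR-3 only in the 2 lapatinib libraries, where XBP1 was also higher. HERPUD1 was the nearest of the 9 other genes of the group, at place 169 (0.496), followed by EDEM1 at place 728 and DNAJB9 at place 752, and SDF2L1 was at place 7967. The 5 most like HSPA5 were LOC729678 (0.087), EIF4A2 (0.112), PARS2 (0.120), TAF1D (0.127) and KDSR (0.129), with DNAJC3 at place 35, HSP90B1 at place 76 and XBP1 at place 8644. LOC729678 reached 100 in SKBR-3 only with both drugs (116.1), where HSPA5 was highest too. XBP1 and HSPA5, whose promoters both hold the element, differed by 0.842 on this measure.

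Other genes of the pathway were read from 6 lists with 114 genes, all found in the tables and 113 kept (DERL3 was not). Their counts are to be read beside the shares of all genes. With lapatinib these were 11.1% raised and 9.44% lowered in SKBR-3, and 14% and 8.06% in BT474m1. With both drugs they were 10.8% and 20.8% in SKBR-3, and 14.2% and 15.3% in BT474m1. A count near its share is no result about a list. Genes named here other than the extremes of each list were chosen after their values were seen. Of 12 sensors and signaling genes, lapatinib raised 4 in SKBR-3 and 1 in BT474m1, with 0 lowered. The combination raised 3 and lowered 0 in SKBR-3 (ERN1, CREB3L1 and CREB3L2), whereas in BT474m1 it raised 0 and lowered 2 (MAP3K5 and CREB3L4). With equal totals the SKBR-3 counts were 2 raised, without CREB3L2, and 1 lowered (TRAF2), and with median-of-ratios scaling 4 were raised, with EIF2AK3 added. With lapatinib in SKBR-3 EIF2AK3, the gene of PERK, was raised at 1.06, beside ERN1, CREB3L1 and CREB3L4, of which CREB3L4 fell short of 2-fold with equal totals (0.99). ERN1, the sensor that splices XBP1 mRNA, was raised by lapatinib in SKBR-3, at 1.41, and stood at the limit in BT474m1, at 1.03 (0.75 to 1.34), with 0.95 under a pseudocount of 10 and 0.98 under median-of-ratios scaling. In SKBR-3 its values were 180.4 (DMSO), 482 (lapatinib), 294 (JQ1) and 1028 (both drugs), and in BT474m1 they were 75.4, 155.4, 85.0 and 127.7. CREB3L1, a membrane-bound factor related to ATF6, went from 37.9 to 626 with lapatinib in SKBR-3, whereas BT474m1 had 2358 with DMSO and 1446 with lapatinib.

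Among 11 genes of the PERK and ATF4 branch, the combination raised 8 and lowered 0 in SKBR-3, beside 10.8% and 20.8% of all genes, with a median change of 1.93. Lapatinib alone raised 4 (CHAC1, DDIT3, SESN2 and ASNS) and lowered 0 there, beside 11.1% and 9.44%. In BT474m1 the shares of all genes were 14.2% raised and 15.3% lowered by the combination, and 14% and 8.06% by lapatinib. In BT474m1 the combination raised 3 (ATF3, DDIT3 and SESN2) and lowered 2 (TRIB3 and ATF5), and lapatinib alone raised 2 (DDIT3 and ATF3) and lowered 1 (ATF5). The lapatinib interval of ATF3, 0.64 to 1.40, took in the limit. Its change fell short of 2-fold with a pseudocount of 10 (0.88) and with median-of-ratios scaling (0.95). DDIT3, which encodes the factor CHOP, was at 72.3 (DMSO), 273 (lapatinib), 68.9 (JQ1) and 1113 (both drugs) in SKBR-3, and 319, 709, 446 and 854 in BT474m1. CHAC1, a target of this branch that breaks down glutathione, went from 45.1 to 329 with lapatinib and 893 with both drugs in SKBR-3. PERK activity was not measured, so the name of the list does not say which signal raised its genes. Against lapatinib alone, adding JQ1 raised 8 of the 11 in SKBR-3, beside 3.22% of all genes. In BT474m1 it raised 0, beside 5.2%, and lowered 2 (TRIB3 and CHAC1), beside 12.5%.

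Among 26 other chaperones and folding enzymes of the lumen, lapatinib raised 1 (ERO1B, an oxidase that feeds the isomerases, at 1.04) and lowered 0 in SKBR-3, and changed 0 in BT474m1. The shares of all genes, for this list and those below, were 11.1% raised and 9.44% lowered in SKBR-3 and 14% and 8.06% in BT474m1. With both drugs the shares were 10.8% and 20.8% in SKBR-3 and 14.2% and 15.3% in BT474m1. ERO1B fell short of 2-fold with a pseudocount of 10 (0.98) and with equal totals (0.99). With both drugs 2 were lowered in SKBR-3 (DNAJB11 at -1.12 and CRELD2 at -1.03) and 0 raised, whereas with median-of-ratios scaling neither passed the limit and 1 (ERO1B) was raised. In BT474m1 1 was raised (ERP44 at 1.10) and 0 lowered. With lapatinib alone CRELD2 and DNAJB11, the J protein that binds SDF2L1, each stood at -0.74 in SKBR-3. Of 21 genes of ER-associated degradation, lapatinib changed 0 in SKBR-3 and raised 1 in BT474m1 (UBE2G2, from 479 to 1050), and the combination raised 4, among them OS9, SEL1L and HERPUD2, and lowered 1 (UBE2G2) in SKBR-3, whereas in BT474m1 it raised 1 (UBE2G2) and lowered 0. Of 23 translocation genes lapatinib changed 0 in either line, and the combination lowered 1 (SRPRB) in SKBR-3 and changed 0 in BT474m1. Of 20 genes of COPII transport, which carries folded cargo out of the ER, lapatinib lowered 1 (SEC24D, from 1799 to 896) in BT474m1 and changed 0 in SKBR-3, and the combination lowered 1 in SKBR-3 (KDELR3) and 3 in BT474m1 (KDELR3, SEC24D and SEC23A). The lapatinib call of SEC24D was lost with a pseudocount of 10 and with equal totals, the KDELR3 call in SKBR-3 with a pseudocount of 10, and the SRPRB call with median-of-ratios scaling.

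**Figure D4:**
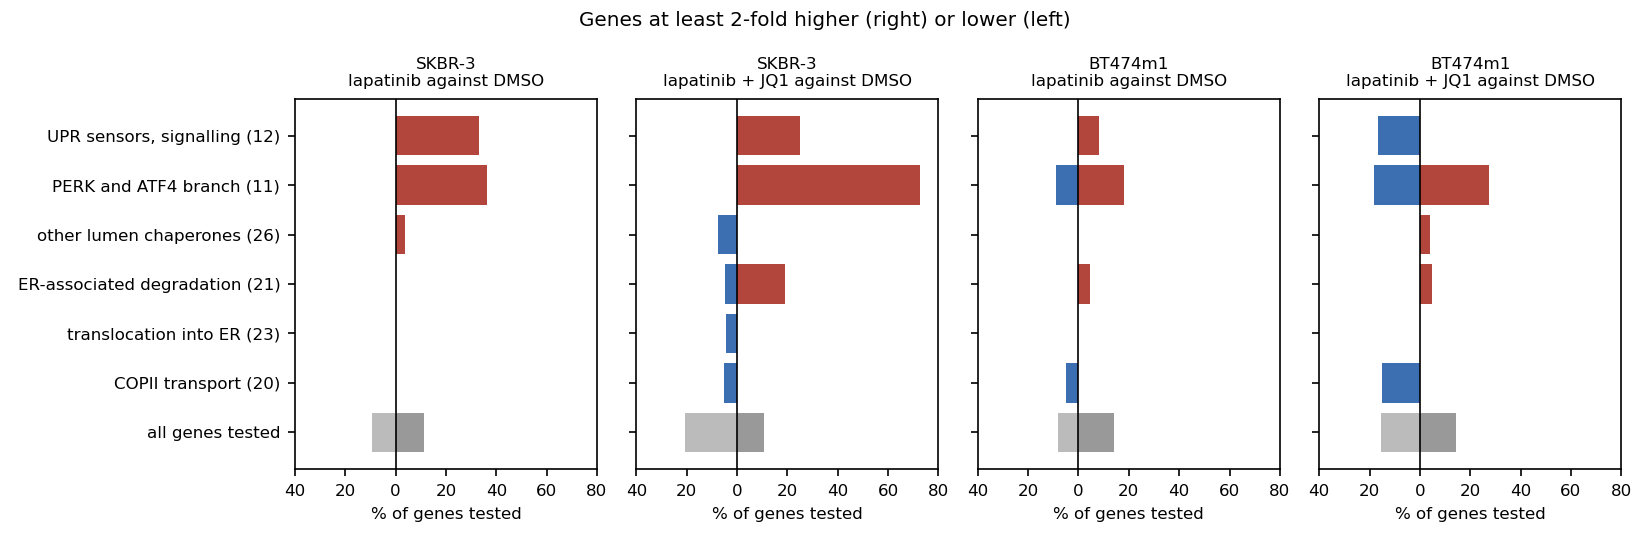
Share of the genes of each list (number kept in parentheses) that were at least 2-fold higher (bars to the right) or lower (bars to the left) than with DMSO, for lapatinib and for both drugs in each line, with all 14429 genes in gray at the bottom. In SKBR-3 8 of 11 genes of the PERK and ATF4 branch were raised by both drugs against 10.8% of all genes.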

How the data were processed

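Polyadenylated RNA of 8 cultures was sequenced, 1 library per group, and groups were taken from the labels. Each deposited table holds a signal for every gene, which the authors made by estimating read counts with RSEM and scaling each library to an upper quartile of about 1000. The submitters' processing notes also name hg19, Picard 1.88, SAMtools 1.2, R 3.2.2, DESeq and DESeq2 1.12.3, whereas the study's methods for RNA sequencing name STAR, Salmon and a later assembly. Which of these descriptions applies to the deposited tables is not given in the sources used here. The labels name both a stranded kit and one that does not mark strand, and whether counting used strand is not given, so that reads of genes overlapping on opposite strands may not be told apart. The labels give 48 h of treatment, as the study does for SKBR-3 expression values, whereas its methods for drug treatment give a shorter time.

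The value of 1 read was recovered as the common step between values. With it 83.8% to 85.2% of the values above 0 were whole reads within 0.02, and the depth was 21420113 to 34112379 reads per library. The recovered reads were used for intervals only, and no count test was run on 1 library per group. A gene was kept where any 1 library reached 10 (14429 of 20531, with 6102 removed). Changes are differences of log2(value + 1), which understates the changes of genes with few reads, and a gene was called at 2-fold. Intervals of a change are 95% Clopper-Pearson intervals on the 2 read counts, and those of differences between changes are normal on the log scale. Both cover counting error only. The rule for named genes took the 10 genes, in each pathway list and line the 2 highest and 2 lowest lapatinib changes among genes at 100 or more in a library, and the 5 genes most like XBP1 and most like HSPA5. The genes, lists and tests were chosen with earlier results of these data known. One gene counted in the pathway lists is not named here. Alternatives were a pseudocount of 10, median-of-ratios scaling, equal totals, no filter, a filter at 100 and a limit of 1.5-fold. The analysis used Python 3.11.15 with pandas 2.3.3, numpy 2.4.6, matplotlib 3.10.9 and scipy 1.17.1, and the scripts were tested on simulated data. Gene positions and promoter sequences are those of RefSeq on GRCh38.p14, which matched 10 of the 10 symbols, and they locate genes and not reads.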

Additional observations from a re-analysis of the deposited data

Results flagged for a closer look

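Changes that went in opposite directions in the 2 lines, with both 95% counting intervals off 0, were listed for closer reading. Each is given as the log2 change in BT474m1 minus that in SKBR-3, and none of these differences was tested, since each group held 1 library. Opposite signs of any size were common over all genes, at 28.8% to 31.9% of them depending on the comparison.

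With lapatinib alone, HSP90B1 differed by 1.09 (from -0.10 in SKBR-3 to 0.99 in BT474m1), SDF2L1 by 1.48 (from -1.16 to 0.31) and PDIA6 by 0.53 (from -0.15 to 0.38). With JQ1 alone, PDIA4 differed by 0.45, DNAJB9 by 0.36 and HSPA5 by 0.34, and EDEM1 by -0.59. The HSPA5 change of -0.04 in SKBR-3 that enters here turned positive under median-of-ratios scaling.

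With both drugs against DMSO, XBP1 differed by -2.13 (from 1.22 in SKBR-3 to -0.91 in BT474m1) and EDEM1 by -1.17 (from 0.87 to -0.30). With both drugs against lapatinib alone, HERPUD1 differed by -1.12 (from 0.68 to -0.44), HSPA5 by -0.91 (from 0.71 to -0.21), PDIA6 by -0.77, EDEM1 by -0.58 and HSP90B1 by -0.53.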

How the results depend on the processing

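Each group held 1 library and the labels give no replicate numbers, so no fit that pools the lines or drugs was run. Libraries were compared within a line, at a fixed level of the other drug or with both drugs against DMSO. The lines were compared with DMSO alone and through the differences of their changes. Of 110 changes of single genes, 0 changed sign with a pseudocount of 10, 8 with median-of-ratios scaling and 2 with equal totals, all of them small, and 0, 3 and 1 crossed 2-fold. The largest shift of a single value was 0.16. With equal totals lapatinib raised 2 genes in BT474m1, since HSP90B1 joined HSPA5. Scaling moved the median change of all genes by over 0.1 in 3 comparisons: from -0.08 to -0.22 for JQ1 in SKBR-3 with equal totals, and with median-of-ratios scaling from -0.11 to 0 for the combination against lapatinib in SKBR-3 and from 0.21 to 0.06 between the lines with DMSO. The median line difference of the changes with both drugs against lapatinib went from 0.11 to -0.01 with that scaling. With a limit of 1.5-fold, the calls and the share of all genes in SKBR-3 were 4 raised (23.2%) and 1 lowered (18.8%) by lapatinib, 0 raised (9.49%) and 1 lowered (21.5%) by JQ1, and 6 raised (21.5%) and 1 lowered (31.9%) by both drugs. Both drugs raised 2 (8.52%) and lowered 1 (27%) against lapatinib, and raised 6 (21%) and lowered 1 (23%) against JQ1. In BT474m1 they were 4 raised (24.8%) and 0 lowered (15.6%) by lapatinib, 0 raised (11.9%) and 2 lowered (21.1%) by JQ1, and 3 raised (24.8%) and 1 lowered (24.6%) by both drugs. There both drugs raised 0 (12.7%) and lowered 2 (20.9%) against lapatinib, and raised 3 (22.4%) and lowered 0 (14.5%) against JQ1. With DMSO 1 gene was higher (37.4%) and 6 were lower (24.2%) in BT474m1 at that limit. Of 47 calls in the pathway lists with lapatinib or both drugs against DMSO, 10 fell under 2-fold in at least 1 of the pseudocount of 10 and the other scalings, which were applied to the lists after seeing the data: CREB3L4 and ERO1B with lapatinib and CREB3L2, DNAJB11, CRELD2, SRPRB and KDELR3 with both drugs in SKBR-3, and ERN1, ATF3 and SEC24D with lapatinib in BT474m1. With both drugs in SKBR-3, median-of-ratios scaling left 0 of the other lumen chaperones lowered and 1 (ERO1B) raised, equal totals gave 3 genes of ER-associated degradation lowered, and in BT474m1 median-of-ratios scaling gave 5 genes of the COPII list lowered. The filters changed no value of the 10 genes. Depth limits SDF2L1 most, and no alternative supplies the missing replicates.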
